A study of Mus musculus with 12 samples.

Results

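By its labels, Gli2 was altered in opposite directions in cultured mouse melanoma cells in 2 experiments of one study, and the question here is which genes and functions responded alike in both and which responded in only one of them. In the first experiment, cells labelled Gli2CA were set against cells with a non-targeting control (NTC); the study's design text describes Gli2CA as an active mutation of Gli2. In the second, cells labelled as a CRISPR-Cas9 knockout of Gli2 were set against Cas9 cells with their own non-targeting control (Cas9-NTC). RNA was sequenced from 3 libraries in each of the 4 groups, 12 in all, and the labels give every one of them the same line, BRAFV600EPTEN-/-, and the cell type melanoma. All cells grew in DMEM with 10% fetal bovine serum and puromycin at 1 ug/mL, and the media of the knockout and Cas9-NTC cells also held blasticidin at 10 ug/mL. No label states separate cultures or clones for the 3 libraries of a group, how Gli2 was cut, or what drives the Gli2CA sequence. The p-values below therefore measure only the spread between these libraries, which may be technical. Of 54532 genes in the authors' table of FPKM (fragments mapped to a gene, scaled by its transcript length and by library depth), 11860 reached 1 FPKM in at least 3 of the 12 libraries and were tested.

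Gli2 is a zinc-finger transcription factor at the end of the Hedgehog pathway. Hedgehog ligands bind the receptor Patched, which frees Smoothened and, in most vertebrate cells through the primary cilium, turns full-length GLI proteins into activators; Gli1 and Ptch1 are transcribed in reply and serve as the usual readouts of the pathway. In melanoma, GLI2 has been tied to invasive, mesenchymal-like states and to TGF-beta signalling.

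For each gene the Gli2CA response was the mean log2(FPKM + 1) of Gli2CA libraries minus that of NTC libraries. The Cas9 response was the mean of Cas9-NTC libraries minus that of the libraries labelled Gli2 knockout; it runs from the edited cells to their control, so a positive value is a lower level in the libraries labelled Gli2 knockout, and equal signs of both responses mean that a gene followed the labelled Gli2 activity in both experiments. The difference of the responses, Gli2CA minus Cas9, is called the interaction and was tested with limma for every gene, with Benjamini-Hochberg adjustment and a threshold of 0.05. Fold changes on the log2(FPKM + 1) scale understate the change of low genes.

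Gli2 RNA itself went against the knockout label. Gli2 (ENSMUSG00000048402, GRCm38 chr1:118834132-119053619, minus strand) measured 0.82, 0.894 and 2.14 FPKM in the libraries labelled Gli2 knockout, against 0.249, 0.35 and 0.235 FPKM in Cas9-NTC libraries, so that all 3 labelled knockout libraries lay above their controls (exact permutation test, 2-sided, p = 0.1, the smallest that 3 against 3 libraries allow). An edit that changes the protein need not lower the RNA, and these values do not show which kind of edit was made. Gli2 measured 0.00911, 0 and 0.0387 FPKM in Gli2CA libraries and 0 in all 3 NTC libraries, which is at or near the 0.0273 FPKM that 3 reads give in the shallowest library. The target genes followed the Gli2CA label. Gli1 measured 1.27, 1.33 and 0.967 FPKM in Gli2CA libraries, against 0.228, 0.177 and 0.162 FPKM in NTC libraries, with no overlap; in the Cas9 experiment it measured 0.174, 0.0439 and 0.0852 FPKM in libraries labelled Gli2 knockout, against 0.0473, 0.0947 and 0.0693 FPKM in Cas9-NTC libraries, and the groups overlapped. Gli1 missed the filter on low values. In a limma fit without that filter its interaction was 0.91 (SE 0.10, adjusted p = 0.000506). Because of the Gli2 RNA, the second experiment is described throughout by its label only.

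Depth recovered from the FPKM values ran between 15972807 and 25983245 reads a library. The third library labelled Gli2 knockout stood apart: its log2(FPKM + 1) values correlated at 0.940 and 0.961 with the other libraries of its own group and at 0.976 to 0.980 with the Cas9-NTC libraries. The median SD over genes was 0.255 in the labelled knockout group, against 0.07 to 0.109 in the other groups. Melanocyte markers differed between the experiments despite the one line label, mostly through Sox10. Sox10, the neural crest factor that melanocytes depend on, averaged 162 FPKM in Gli2CA and 189 FPKM in NTC libraries but 0.00465 FPKM in labelled knockout and 0.028 FPKM in Cas9-NTC libraries. Mitf, the melanocyte master regulator, went the other way, at 1.06 FPKM in Gli2CA and 1.03 FPKM in NTC against 2.22 FPKM in labelled knockout and 2.67 FPKM in Cas9-NTC libraries. Tyrp1 and Dct, which make pigment, were listed at 0 in all 12. Of 14 leukocyte markers, 12 stayed under 1 FPKM in every library. A difference between the responses therefore cannot be told apart from a difference between the cells, the media or the kind of Gli2 change, and in bulk samples fewer cells of a type and less RNA per cell cannot be told apart either.

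The interaction was called for 1246 of 11860 genes (10.5%), 574 of them higher (4.84%) and 672 lower (5.67%); 402 (3.39%) differed by at least 2-fold. With libraries rescaled to a common FPKM sum 330 were higher and 968 lower, and with voom on recovered reads 367 were higher and 695 lower. The Gli2CA response was called for 1685 genes (14.2%), 1002 higher (8.45%) and 683 lower (5.76%). The Cas9 response was called for 3182 (26.8%), of which 1323 (11.2%) were higher in the labelled knockout and 1859 (15.7%) lower. Both were called for 716 (6.04%), which is 42.5% of the Gli2CA calls and 22.5% of the Cas9 calls. Of those 716 genes, 620 moved with the same sign in both experiments. Across all genes tested the Pearson correlation of the responses was 0.28, which describes genes, not replicates; the experiments share no libraries. Each gene was then placed by its 3 calls. Alike genes had both responses called with one sign and no call of the interaction, and numbered 519 (4.38%), 369 of them (3.11%) higher with Gli2CA and lower in the labelled knockout and 150 (1.26%) the reverse. A further 101 genes (0.852%) had both responses called with one sign but of unequal size, 91 higher (0.767%) and 10 lower (0.0843%) with Gli2CA. Opposite signs were called for 96 (0.809%), 38 higher (0.32%) and 58 lower (0.489%) with Gli2CA. The Gli2CA response alone was called, with the interaction, for 447 genes (3.77%), 238 higher (2.01%) and 209 lower (1.76%). The Cas9 response alone, with the interaction, was called for 521 (4.39%), 205 (1.73%) higher and 316 (2.66%) lower in the labelled knockout. For 522 genes with only the Gli2CA response called and 1945 with only the Cas9 response called, the interaction was not called, so a difference between the experiments was not shown.

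**Figure D1:**
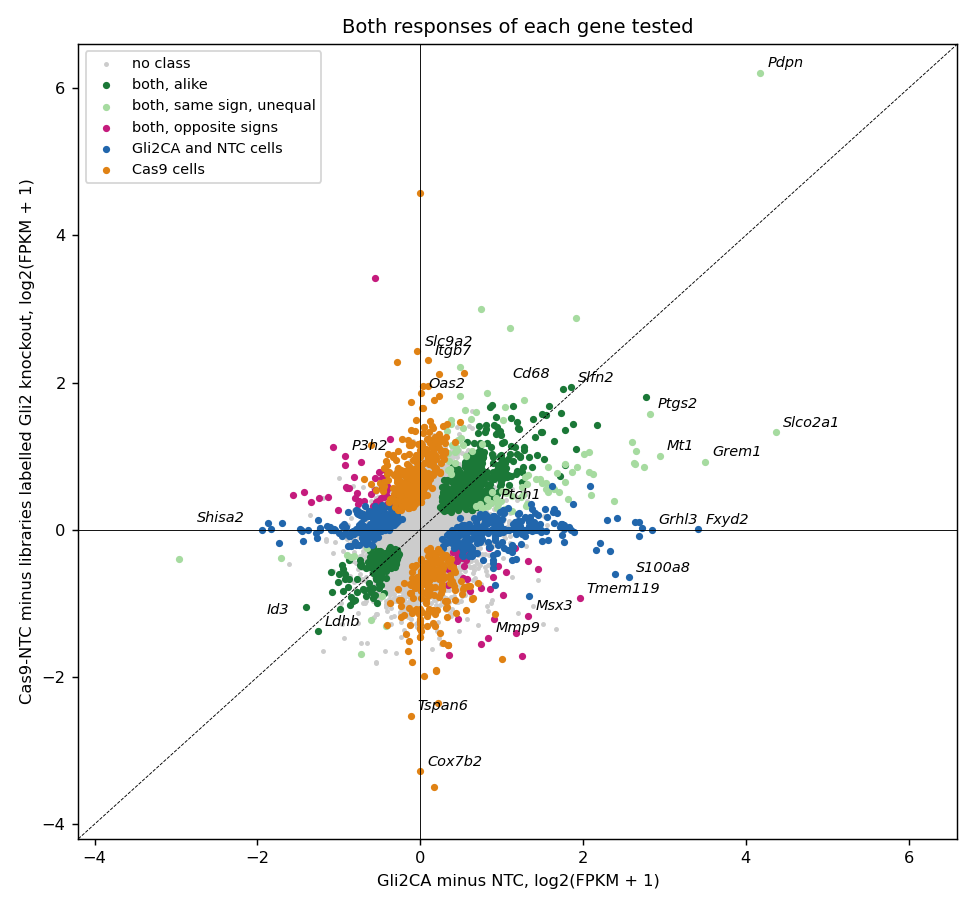
Each point is 1 of the 11860 genes tested, with the Gli2CA response (Gli2CA minus NTC) on the x axis and the Cas9 response (Cas9-NTC minus libraries labelled Gli2 knockout) on the y axis, both as log2(FPKM + 1) differences; colours mark the classes, and the dashed line marks equal responses. Pdpn lies at 4.18 and 6.21, while Fxyd2 and Cox7b2 lie on the axes at 3.41 and -3.28.

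A call that is missing in one experiment can rest on low expression there. Of the 447 genes that responded in the Gli2CA experiment only, 191 were under 1 FPKM in all 6 libraries of the Cas9 experiment, as were 599 of all genes tested; of the 521 that responded in the Cas9 experiment only, 144 were under 1 FPKM in all 6 Gli2CA and NTC libraries, as were 689 of all genes tested. The 95% interval of the uncalled response lay within 1 log2 unit of 0 for 440 of the 447 and for 503 of the 521. For the 191 and 144 low genes, log2(FPKM + 1) lies between 0 and 1 in the other experiment. The scale itself kept their response within 1 unit there, so these counts do not show that they did not respond. The interval of the interaction lay within 1 log2 unit for 496 of the 519 alike genes, and 511 of them showed no overlap between libraries in either experiment. For all 519 alike genes, the third library labelled Gli2 knockout lay on the same side of the Cas9-NTC mean as the rest of its group. The same held for 520 of the 521 genes that responded in the Cas9 experiment only. The distance of that library from the mean was a median of 0.7 and 0.68 times that of the other libraries of its group. Both classes required a called Cas9 response in a fit that held this library. These counts, and the 511 without overlap, were thus largely set by the selection and do not test the library. Without the third labelled knockout library 381 of the 519 alike genes kept their class, and the interaction was called for 6671 genes in place of 1246. With array weights, which gave that library little weight, it was called for 7963. With each experiment fitted alone the Cas9 response was called for 762 genes in place of 3182 and 243 genes were alike. The main fit shares 1 spread per gene over the 4 groups, so the SEs of both responses of a gene are equal by construction. Because the labelled knockout group varied most, that shared spread favours calls of the Cas9 response. Over 9 alternative settings, 48 alike, 12 unequal, 20 opposite, 59 Gli2CA-only and 89 Cas9-only genes kept their class in every one. Among genes whose class is described below, Ifit1 kept it in 3 of the 9 settings, Mmp10 in 4, Serpinb2 in 5, Gas1 and Pgk1 in 6, and Ccl8, S100a8, Ptges, Ldhb, Fos, Usp18, Itgb7 and H2-K1 in 7; the other genes of these 5 classes given with their own values in every library kept it in 8 or 9.

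The alike genes with the largest responses included Slfn2, Cd68, Sele and Havcr2. Slfn2, a Schlafen family gene, measured 3.2, 3.85 and 4.02 FPKM in Gli2CA libraries against 0.211, 0.389 and 0.299 FPKM in NTC libraries. Slfn2 was at 0.625, 0.922 and 0.307 FPKM in libraries labelled Gli2 knockout against 6.21, 4.1 and 5.25 FPKM in Cas9-NTC libraries. It was higher with Gli2CA and lower in the labelled knockout with no overlap, by 1.85 and 1.94 log2 units (SE 0.16 each), and the interaction was -0.09 (SE 0.22, adjusted p = 0.802). Havcr2, which encodes the checkpoint receptor TIM-3, measured 10.3, 10 and 10.3 FPKM in Gli2CA against 3.54, 2.4 and 2.47 FPKM in NTC libraries. Havcr2 was at 1.43, 1.29 and 0.954 FPKM in the labelled knockout against 5.68, 6.57 and 6.11 FPKM in Cas9-NTC libraries. Again no library of either experiment overlapped, and the responses of 1.58 and 1.68 differed by -0.11 (SE 0.17, adjusted p = 0.691). Cd68, a lysosomal glycoprotein used as a macrophage marker, responded by 1.75 and 1.92 and Sele, the leukocyte adhesion receptor E-selectin, by 1.73 and 1.59. Cd68 was the one leukocyte marker of 14 that passed the filter; the summed level of that list, most of it Cd68, was 7.17 to 8.76 FPKM in Gli2CA, 1.72 to 2.73 in NTC, 1.71 to 2.35 in labelled knockout and 9.52 to 9.73 in Cas9-NTC libraries, and the T cell and natural killer markers Cd3e, Cd8a and Ncr1 were at 0 in all 12. Sele is an endothelial gene, and the summed level of 12 endothelial markers was 21.1 to 23.5 FPKM in Gli2CA, 4.56 to 5.68 in NTC, 9.22 to 25.1 in labelled knockout and 11.7 to 12.1 in Cas9-NTC libraries. Cdh5, the endothelial cadherin, went the other way in the Cas9 experiment, averaging 11.4 FPKM in labelled knockout libraries, against 2.81 FPKM in Cas9-NTC libraries. Flt1 and Cdh5 made up most of the endothelial sums, and 9 of the 12 markers stayed under 1 FPKM in every library. Flt1 averaged 21.4 FPKM in Gli2CA, 4.94 in NTC, 3.39 in labelled knockout and 8.0 in Cas9-NTC libraries. The part of other cell types in these responses was not tested. Slfn2, Havcr2 and Sele were alike under all 9 alternative settings.

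Chemokines and inflammatory mediators held both alike and Gli2CA-only members. Of 16 measured chemokines, colony-stimulating factors and cytokines, 4 responded alike and higher (Ccl9, Il11, Ccl7 and Ccl2), 6 in the Gli2CA experiment only, 1 in the Cas9 experiment only (Lif, a cytokine of the IL-6 family) and 1, Ccl5, unequally; the median interaction of the list was 0.25, against 0.00 over all genes, and -0.09 when libraries were rescaled to a common FPKM sum. For Ccl9 the likeness depended on the scale. Its ratios of means were 1.66 in the Gli2CA experiment and 6.43 in the Cas9 experiment. With limma's voom on recovered reads its interaction was -2.22 (adjusted p = 0.0103). Ccl7, a monocyte attractant, measured 154, 156 and 152 FPKM in Gli2CA against 47, 70.2 and 42.9 FPKM in NTC libraries. Ccl7 was at 57.5, 42.8 and 22.8 FPKM in labelled knockout libraries, against 124, 117 and 105 FPKM in Cas9-NTC libraries. Its responses were 1.54 and 1.56 (SE 0.28 each), with the third labelled knockout library the lowest of its group, and the interaction was -0.02 (adjusted p = 0.981). Il11, an IL-6 family cytokine, responded by 1.39 and 1.5, with 46.4 to 55.4 FPKM in Gli2CA against 17.7 to 20.3 FPKM in NTC libraries, and 0.444 to 1.64 FPKM in labelled knockout libraries, against 3.61 to 4.46 FPKM in Cas9-NTC libraries. The Gli2CA-only members were Ccl8, S100a8, Il33, Il34 and Vegfa, all higher, and Cxcl10, lower. Ccl8, another monocyte attractant, measured 10.7, 12.2 and 11.6 FPKM in Gli2CA against 0.857, 1.5 and 0.731 FPKM in NTC libraries, but 0.577 FPKM or less in every library of the Cas9 experiment (interaction 2.53, SE 0.26, adjusted p = 0.000114). S100a8, a calcium-binding alarmin, measured 13.5, 14.2 and 11.7 FPKM in Gli2CA against 1.14, 2.71 and 0.718 FPKM in NTC libraries. S100a8 was at 8.93, 6.32 and 3.07 FPKM in labelled knockout libraries, against 2.81, 3.92 and 3.11 FPKM in Cas9-NTC libraries. Its Cas9 response of -0.65 was not called and the groups overlapped there, and the interaction was 3.21 (SE 0.45, adjusted p = 0.00102).

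Prostaglandin genes, which the title of the study names together with Wnt ligands, were called with one sign in both experiments for 5 of 10 measured members. Of these, 2 were alike and 3 unequal, with a median interaction of 0.19 over the 10; all 3 unequal members had the larger response with Gli2CA. Ptgs2, the inducible cyclooxygenase, measured 109, 93.8 and 99.3 FPKM in Gli2CA against 13.3, 15.2 and 11.7 FPKM in NTC libraries, a ratio of 7.52, and 11.3, 12.1 and 13.2 FPKM in labelled knockout libraries, against 37.2, 40.5 and 37.3 FPKM in Cas9-NTC libraries, where the control was 3.14 times the labelled knockout. The NTC and labelled knockout libraries overlapped each other in level, and the responses differed by 1.25 (SE 0.15, adjusted p = 0.000302). Ptgs1, the constitutive cyclooxygenase, was alike: 98.8, 86.5 and 91.8 FPKM in Gli2CA against 43.5, 45.7 and 45.8 FPKM in NTC libraries. Ptgs1 was at 30.2, 34.8 and 46.6 FPKM in labelled knockout libraries, against 66.7, 67 and 62.4 FPKM in Cas9-NTC libraries. The responses of 1.02 and 0.82 differed by 0.20 (SE 0.19, 95% interval -0.21 to 0.61, adjusted p = 0.488). Slco2a1, which carries prostaglandins into cells, measured 26.1, 23.5 and 25.1 FPKM in Gli2CA against 0.204, 0.33 and 0.225 FPKM in NTC libraries. Slco2a1 was at 1.57, 1.97 and 4.65 FPKM in labelled knockout libraries, against 7.38, 8.21 and 7.82 FPKM in Cas9-NTC libraries (interaction 3.04, SE 0.32, adjusted p = 0.000136). Ptges, the terminal prostaglandin E synthase, was alike on the log2(FPKM + 1) scale (0.73 and 0.66), but its ratio of means was 14.8 in the Gli2CA experiment and 1.94 in the Cas9 experiment, and with limma's voom on recovered reads the interaction was 3.85 (adjusted p = 0.0123).

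No measured Wnt ligand was called alike. Of 6 measured, Wnt7a and Wnt2 rose with Gli2CA only and Wnt5b was called in the Cas9 experiment only. The class of Wnt5b depended on the scale, as it was under 1 FPKM in every Gli2CA and NTC library. Its Gli2CA mean was 0.198 times the NTC mean and its Cas9-NTC mean 1.7 times the labelled knockout mean. With voom its interaction was -3.09 (adjusted p = 0.0178). Under voom and under a pseudocount of 0.1, 1 ligand was opposite and 0 were Cas9-only. Wnt7a measured 13.4, 11.8 and 11.7 FPKM in Gli2CA against 2.6, 2.58 and 2.83 FPKM in NTC libraries and was listed at 0 in all 6 libraries of the Cas9 experiment (interaction 1.86, SE 0.11, adjusted p = 3.03e-06). Wnt2 measured 2.18 to 2.58 FPKM in Gli2CA against 0.157 to 0.447 FPKM in NTC libraries, and 0.0566 to 0.173 FPKM in the Cas9 experiment. Among Wnt receptors, modulators and targets, 4 of 21 responded in the Gli2CA experiment only; Lef1, the transcription factor partner of beta-catenin, was at 0.135, 0.145 and 0.187 FPKM in Gli2CA against 1.61, 1.43 and 1.45 FPKM in NTC libraries and under 0.1 FPKM in the Cas9 experiment. The Hedgehog list itself gave 1 call of the interaction in 18 measured members (5.56%, against 10.5% of all genes), while 11 of the 18 had an unadjusted p under 0.05 with limma. The Gli2CA response was called higher for 6 members and lower for 1, the Cas9 response was called for 1, and none was alike. The few calls of the interaction thus do not show like responses. Gas1, a co-receptor for Hedgehog ligands, was the member with a called interaction, at 3.15, 2.65 and 2.64 FPKM in Gli2CA against 0.37, 0.278 and 0.315 FPKM in NTC libraries. Gas1 was at 24.6, 24.8 and 34.6 FPKM in labelled knockout libraries, against 32.9, 35.1 and 34 FPKM in Cas9-NTC libraries (interaction 1.24, SE 0.17, adjusted p = 0.000908). Ptch1, the Hedgehog receptor and target, measured 5.92, 5.54 and 5.71 FPKM in Gli2CA against 2.68, 2.48 and 2.66 FPKM in NTC libraries. Ptch1 was at 1, 1.08 and 2.32 FPKM in labelled knockout libraries, against 1.94, 2.12 and 2.07 FPKM in Cas9-NTC libraries. Its Gli2CA response was 0.90 (SE 0.16) and its Cas9 response 0.34 (SE 0.16, not called), and the interaction of 0.55 (SE 0.22, adjusted p = 0.139) does not tell the responses apart. The third labelled knockout library was the one above the Cas9-NTC range; without it the Cas9 response was 0.58, both responses were called, and the sign was the same with unequal size. The GLI core motif GACCACCCA, searched on both strands between 250 bases before and 50 bases after RefSeq gene starts, was in 0.289% of all promoters, in 1 of 284 alike genes that were higher and in 0 of 172 Gli2CA-only genes that were higher.

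**Figure D2:**
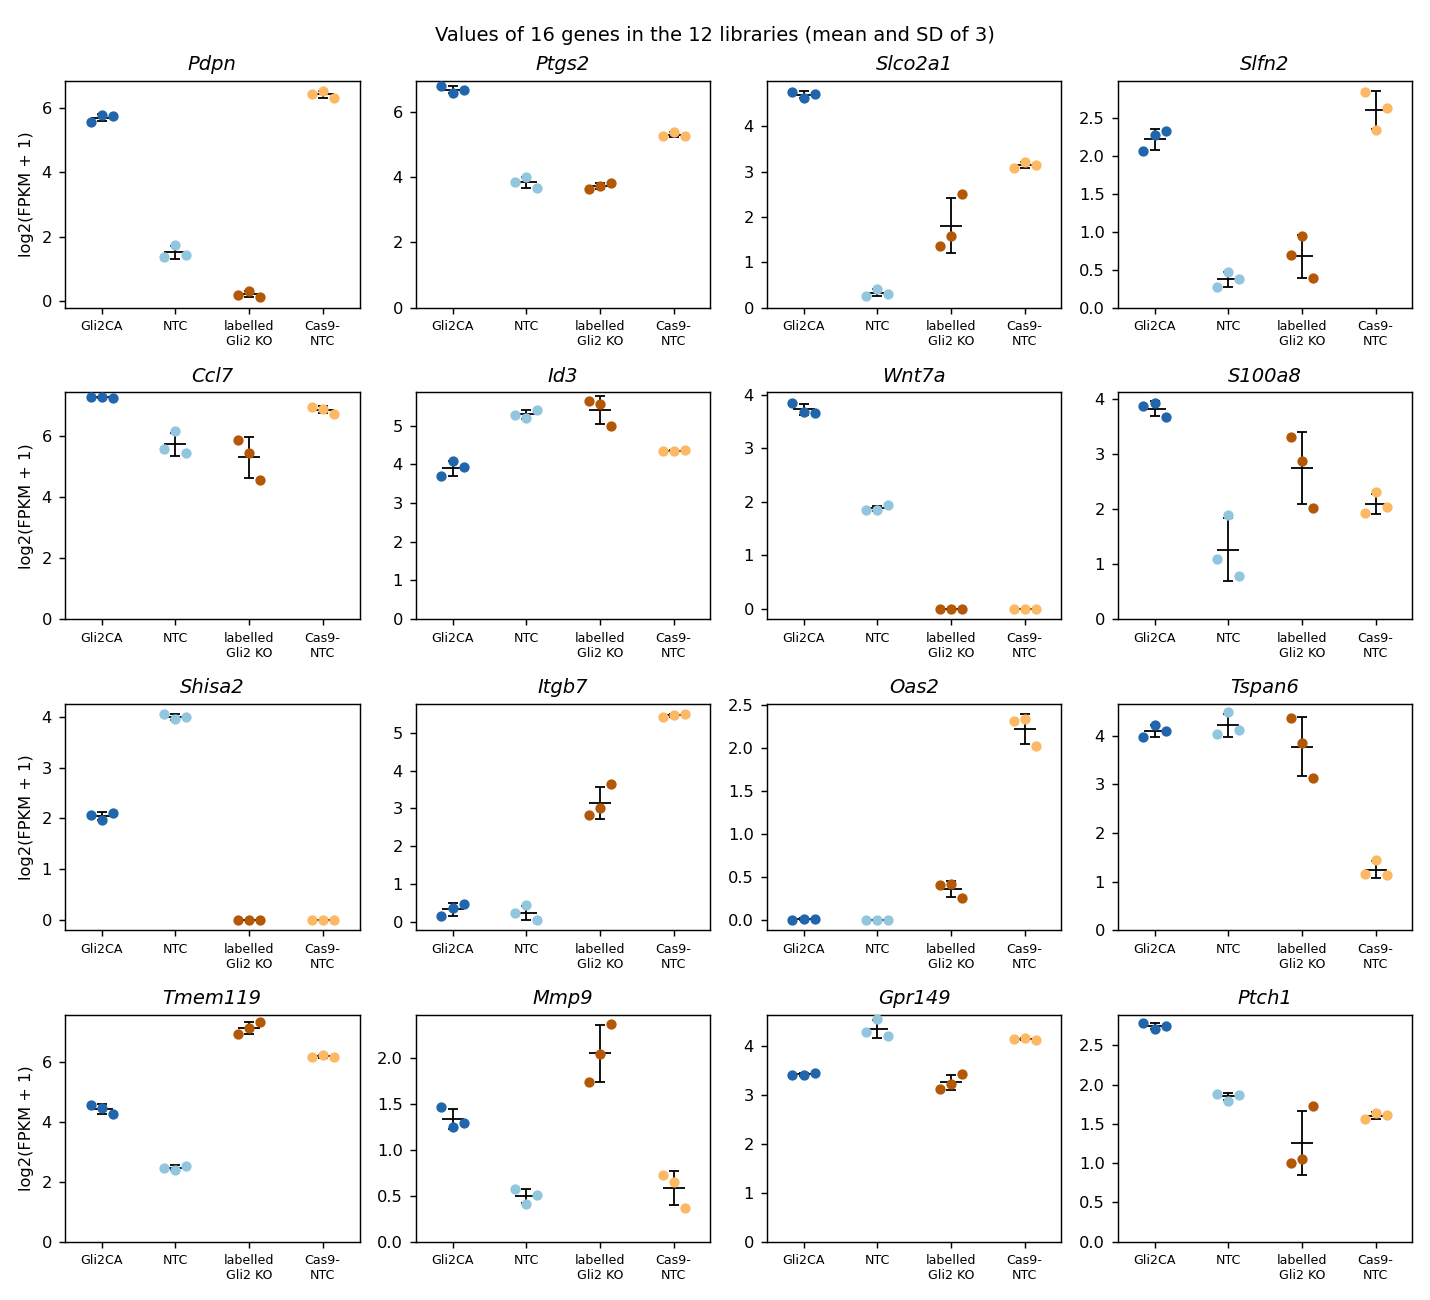
Levels of 16 genes as log2(FPKM + 1) in each of the 12 libraries; groups run from left to right as Gli2CA, NTC, libraries labelled Gli2 knockout and Cas9-NTC, points are libraries and bars give the mean and SD of 3. Wnt7a and Shisa2 are at 0 in all 6 libraries of the Cas9 experiment, and Tspan6 is low in Cas9-NTC libraries only.

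Of genes called with one sign in both experiments, Pdpn had the largest Cas9 response and, after Slco2a1, the largest Gli2CA response. It encodes podoplanin, a mucin-type membrane glycoprotein that binds the platelet receptor CLEC-2. Pdpn (chr4:143267431-143299564, minus strand) measured 46.5, 53.8 and 52.5 FPKM in Gli2CA against 1.59, 2.33 and 1.71 FPKM in NTC libraries. Pdpn was at 0.143, 0.241 and 0.0937 FPKM in labelled knockout libraries, against 85, 90.3 and 78.9 FPKM in Cas9-NTC libraries. The Gli2CA mean was 27.1 times its control and the Cas9-NTC mean 531 times the labelled knockout mean, and the interaction was -2.03 (SE 0.15, adjusted p = 1.99e-05), with the Cas9 response the larger. Grem1, a secreted BMP antagonist, was unequal the other way. It measured 125, 111 and 115 FPKM in Gli2CA against 8.86, 10.4 and 9.15 FPKM in NTC libraries. It was at 55.2, 59.2 and 74.1 FPKM in labelled knockout libraries, against 118, 123 and 117 FPKM in Cas9-NTC libraries (interaction 2.57, SE 0.16, adjusted p = 4.97e-06). The Gli2CA and Cas9-NTC libraries reached like levels of Grem1, and the NTC and labelled knockout libraries differed. Mt1, a metallothionein, was also unequal, with 9.6, 9.18 and 7.84 FPKM in Gli2CA against 0.176, 0.331 and 0.35 FPKM in NTC libraries. Mt1 was at 80.7, 82.4 and 76.5 FPKM in labelled knockout libraries, against 157, 163 and 163 FPKM in Cas9-NTC libraries. Serpinb2, a plasminogen activator inhibitor, was unequal on the log2(FPKM + 1) scale (2.38 and 0.39) while its ratios of means were 5.49 and 6.36, and voom put its interaction at -0.22 (adjusted p = 0.815). Id1 and Id3, BMP targets that inhibit basic helix-loop-helix factors, were alike in the other direction. Id3 measured 11.9, 16 and 14.2 FPKM in Gli2CA against 38, 35.6 and 41.7 FPKM in NTC libraries. Id3 was at 49.2, 46.4 and 30.9 FPKM in labelled knockout libraries, against 19.4, 19.3 and 19.6 FPKM in Cas9-NTC libraries. The responses of Id3 were -1.40 and -1.05 (interaction -0.35, SE 0.23, adjusted p = 0.323). Ldhb, a subunit of lactate dehydrogenase, was also lower with Gli2CA and higher in the labelled knockout, by -1.26 and -1.38.

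Among the lists with at least 10 measured members, immediate early genes, which growth factor and stress signals switch on without new protein synthesis, had the highest share of alike members here and under 7 of the 9 alternatives. With a pseudocount of 5 the hypoxia list came first, at 10 of 31 against 6 of 19, and with array weights the neural crest list, at 7 of 20 against 6 of 19. Of 19 measured, 9 responded alike and higher (Ier3, Junb, Zfp36, Atf3, Fos, Dusp1, Egr3, Egr2 and Egr1), Maff was unequal, and Nr4a1 and Klf4 responded in the Cas9 experiment only; the median responses were 0.51 in both experiments and the median interaction 0.01. Egr3, a zinc-finger transcription factor, measured 5.17, 4.72 and 6.04 FPKM in Gli2CA against 2.5, 2.02 and 2.3 FPKM in NTC libraries. Egr3 was at 0.758, 0.935 and 1.52 FPKM in labelled knockout libraries, against 2.58, 2.6 and 2.24 FPKM in Cas9-NTC libraries. No libraries overlapped in either experiment and the responses of 0.94 and 0.76 differed by 0.18 (SE 0.19, adjusted p = 0.525). Dusp1, a phosphatase that switches off MAP kinases, measured 18, 16.5 and 16.1 FPKM in Gli2CA against 10.5, 9.62 and 9.16 FPKM in NTC libraries. Dusp1 was at 10.5, 9.93 and 9.18 FPKM in labelled knockout libraries, against 15.8, 16.8 and 14.6 FPKM in Cas9-NTC libraries (interaction 0.11, adjusted p = 0.553). Fos, a subunit of AP-1, was alike from very different levels, at 12.1, 11.4 and 9.93 FPKM in Gli2CA against 7.28, 7.68 and 7.44 FPKM in NTC libraries. Fos was at 0.184, 0.242 and 0.217 FPKM in labelled knockout libraries, against 0.828, 0.587 and 0.573 FPKM in Cas9-NTC libraries. Its ratios of means were 1.49 in the Gli2CA experiment and 3.09 in the Cas9 experiment, so the likeness holds on the log2(FPKM + 1) scale. The MAPK feedback phosphatase Dusp5 responded by 1.19 and 1.03, and Dusp5, Egr3 and Dusp1 were alike under all 9 alternative settings. Rescaling libraries to a common FPKM sum put the median interaction of all genes at -0.31 and that of the immediate early genes at -0.45, and 6 of 19 were then alike.

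Extracellular proteases and their inhibitors had 7 alike members of 29 measured, all higher, among them Mmp19, Mmp10, Timp1, Adam8, Plaur and Mmp13. For Mmp13, a collagenase, the likeness depended on the scale and held in 5 of the 9 settings: its ratios of means were 14.7 in the Gli2CA experiment and 2.14 in the Cas9 experiment, and voom put the interaction at 2.95 (adjusted p = 0.0368). Mmp10, a stromelysin, measured 312, 323 and 312 FPKM in Gli2CA against 144, 154 and 138 FPKM in NTC libraries. Mmp10 was at 82.3, 84.4 and 68.1 FPKM in labelled knockout libraries, against 231, 244 and 202 FPKM in Cas9-NTC libraries (interaction -0.40, SE 0.15, adjusted p = 0.115, but -0.54 and adjusted p = 0.0326 with voom). Mmp3, another stromelysin, was Gli2CA-only: it measured 548, 528 and 552 FPKM in Gli2CA against 224, 253 and 220 FPKM in NTC libraries but 58.8, 56.7 and 43.6 FPKM in labelled knockout libraries, against 61.7, 54.6 and 48.3 FPKM in Cas9-NTC libraries, which overlapped. Its interaction was 1.17 (SE 0.18, adjusted p = 0.00184), and the class held under all 9 alternative settings. Mmp9, a gelatinase, responded in opposite directions, at 1.75, 1.37 and 1.46 FPKM in Gli2CA against 0.483, 0.333 and 0.422 FPKM in NTC libraries. Mmp9 was at 2.34, 3.12 and 4.15 FPKM in labelled knockout libraries, against 0.65, 0.568 and 0.294 FPKM in Cas9-NTC libraries. Mmp9 was thus higher in the edited cells of both experiments (interaction 2.31, SE 0.21, adjusted p = 6.15e-05).

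**Figure D3:**
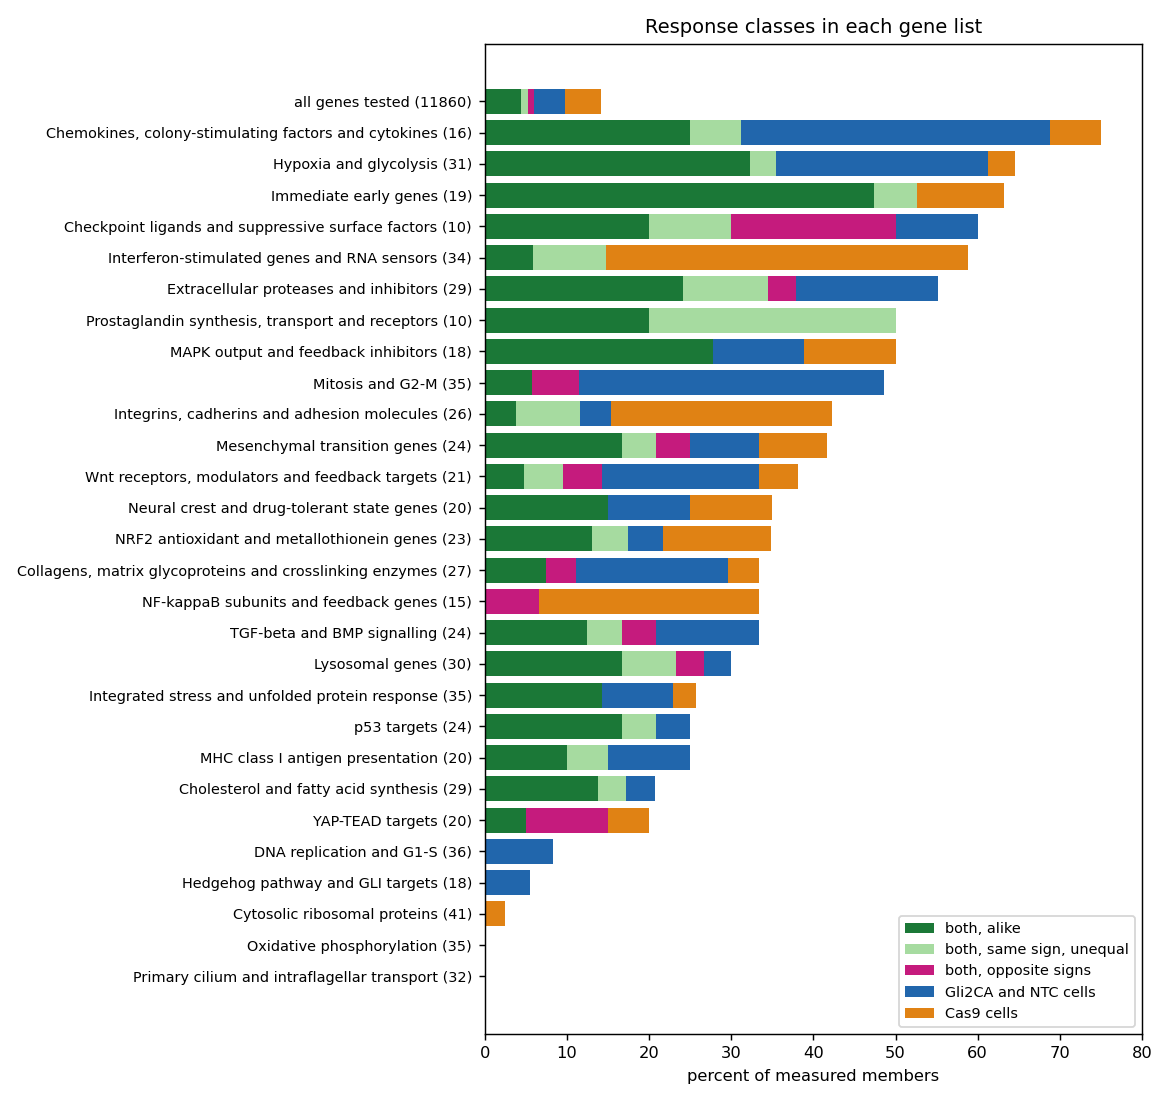
Percent of the measured members of each list (number in brackets) in each response class, from alike on the left to Cas9-only on the right, with all genes tested at the top. Alike genes are 9 of 19 immediate early genes, Cas9-only genes are 15 of 34 interferon-stimulated genes, and Gli2CA-only genes are 13 of 35 mitosis genes.

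Hypoxia and glycolysis genes were divided between alike and Gli2CA-only responses. Of 31 measured gene identifiers, 10 were alike and higher, 8 rose with Gli2CA only, 1 responded in the Cas9 experiment only and 1 unequally; the interaction was higher for 9 and lower for 1, with a median of 0.34. Slc2a1, the glucose transporter GLUT1, measured 112, 115 and 111 FPKM in Gli2CA against 51.2, 59.7 and 57.1 FPKM in NTC libraries. Slc2a1 was at 30.5, 37.6 and 47 FPKM in labelled knockout libraries, against 70.7, 71.5 and 73.4 FPKM in Cas9-NTC libraries. It was alike under all 9 alternative settings (responses 1.00 and 0.91, interaction 0.09, SE 0.18, adjusted p = 0.764), and Ndrg1, a gene induced by low oxygen, responded by 1.22 and 1.00. Pfkfb4, which sets the level of a glycolytic activator, measured 16.8, 17.4 and 18.2 FPKM in Gli2CA against 9.69, 9.88 and 8.57 FPKM in NTC libraries but 1.15, 1.21 and 1.45 FPKM in labelled knockout libraries, against 1.13, 0.971 and 0.94 FPKM in Cas9-NTC libraries (interaction 1.01, SE 0.12, adjusted p = 0.000333). Egln3, an oxygen-sensing prolyl hydroxylase, rose with Gli2CA by 0.66 and had a Cas9 response of -0.05, with 50.2 to 56 FPKM in labelled knockout and 50.2 to 52.5 FPKM in Cas9-NTC libraries. Pgk1, a glycolytic kinase, measured 931.4, 1076 and 1019 FPKM in Gli2CA against 587.5, 584.5 and 638.7 FPKM in NTC libraries, while the labelled knockout libraries, at 950.5, 905.3 and 582.6 FPKM, overlapped the Cas9-NTC libraries, at 736.9, 714.4 and 681.8 FPKM. Car9, a carbonic anhydrase induced by low oxygen, did the reverse: it measured 1.25, 0.912 and 1.25 FPKM in Gli2CA against 1.24, 0.46 and 0.838 FPKM in NTC libraries. Car9 was at 1.73, 1.27 and 1.5 FPKM in labelled knockout libraries, against 8.32, 11.2 and 10.2 FPKM in Cas9-NTC libraries (interaction -1.89, SE 0.22, adjusted p = 0.000303). The division depended on the scaling and on the fit: rescaled to a common FPKM sum, 4 were alike and 3 had a higher interaction, and with each experiment fitted alone 3 were alike and 9 Gli2CA-only.

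The letters ACGTG, the core of the element bound by hypoxia-inducible factors, were searched on both strands in the same promoters. They were in 21.8% of all promoters, in 29.9% of those of tested genes and in 21 of 29 measured hypoxia and glycolysis genes with a promoter entry (72.4%), in 6 of 9 alike members and in 5 of 8 Gli2CA-only members. The promoters of Slc2a1 (alike), Pgk1 (Gli2CA only) and Car9 (Cas9 only) are shown because 1 gene of each class holds the same letters. They come from RefSeq, build GRCm38.p6, at chr4:119108495-119108794, chrX:106186850-106187149 and chr4:43506776-43507075, all on the plus strand, with matches in capitals; none overlapped a match of another motif searched. The first matching base lies at -36 from the start in Slc2a1, at -150 and -131 in Pgk1 and at -18 in Car9. A match describes the sequence and does not show a bound site.
Slc2a1: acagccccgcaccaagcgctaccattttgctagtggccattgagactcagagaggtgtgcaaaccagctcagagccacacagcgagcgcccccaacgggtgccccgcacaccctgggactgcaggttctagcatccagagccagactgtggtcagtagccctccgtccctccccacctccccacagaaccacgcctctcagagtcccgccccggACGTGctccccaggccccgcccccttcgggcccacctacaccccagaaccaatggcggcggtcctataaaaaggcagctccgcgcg
Pgk1: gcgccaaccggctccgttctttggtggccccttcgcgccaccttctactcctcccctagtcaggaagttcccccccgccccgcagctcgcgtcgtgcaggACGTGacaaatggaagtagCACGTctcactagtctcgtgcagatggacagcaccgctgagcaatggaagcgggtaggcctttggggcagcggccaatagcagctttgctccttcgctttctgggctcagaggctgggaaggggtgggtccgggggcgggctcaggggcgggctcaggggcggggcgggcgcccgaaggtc
Car9: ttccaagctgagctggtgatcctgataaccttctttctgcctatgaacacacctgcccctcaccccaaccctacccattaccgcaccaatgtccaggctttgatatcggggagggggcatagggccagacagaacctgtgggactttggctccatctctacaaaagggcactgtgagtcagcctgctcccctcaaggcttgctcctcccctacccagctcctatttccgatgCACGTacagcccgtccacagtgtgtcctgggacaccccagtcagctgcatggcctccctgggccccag

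Interferon-stimulated genes and RNA sensors, which type I and type II interferons switch on, were called mostly in the Cas9 experiment. Of 34 measured, 15 were lower in the libraries labelled Gli2 knockout with no call in the Gli2CA experiment, 3 were unequal (Ifit3, Ifit1 and Oas1a) and 2 alike (Oasl1 and Irf5); the interaction was lower for 17 and higher for 1, Oas1a, with a median of -0.49. The clearest members were guanylate-binding proteins, GTPases that act on intracellular pathogens. Gbp7 measured 1.29, 1.04 and 1.21 FPKM in Gli2CA against 1.07, 1.37 and 1.39 FPKM in NTC libraries. Gbp7 was at 0.826, 1.2 and 1.14 FPKM in labelled knockout libraries, against 3.06, 3.29 and 2.72 FPKM in Cas9-NTC libraries. Gli2CA and NTC libraries overlapped, the Cas9-NTC mean was 2.87 times the labelled knockout mean, and the interaction was -1.03 (SE 0.14, adjusted p = 0.000976). Gbp2 measured 2.19, 2.4 and 2.17 FPKM in Gli2CA against 2.25, 1.94 and 1.93 FPKM in NTC libraries. Gbp2 was at 1.48, 1.92 and 1.59 FPKM in labelled knockout libraries, against 4.06, 3.35 and 3.21 FPKM in Cas9-NTC libraries (interaction -0.67, adjusted p = 0.0101). Gbp3 followed the same pattern (interaction -0.78, adjusted p = 0.00601), and Gbp2, Gbp3 and Gbp7 kept this class under all 9 alternative settings. Stat2, a transcription factor that interferon receptors activate, had an interaction of -0.57 (adjusted p = 0.0207) with a Gli2CA response of -0.08, and kept its class under 8 of the 9.

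The class of many other members depended on the scale, and 9 of the 15 were under 1 FPKM in every Gli2CA and NTC library. Usp18, which restrains interferon signalling, measured 0.112, 0.178 and 0.0952 FPKM in Gli2CA against 0.0157, 0 and 0.0223 FPKM in NTC libraries. Usp18 was at 2.11, 2.55 and 2.32 FPKM in labelled knockout libraries, against 5.73, 4.82 and 5.04 FPKM in Cas9-NTC libraries. Neither experiment overlapped, although only the Cas9 response was called on the log2(FPKM + 1) scale. Ifit1, an antiviral RNA-binding protein, was at 0.306, 0.375 and 0.38 FPKM in Gli2CA against 0.0824, 0.0222 and 0.0469 FPKM in NTC libraries, a ratio of 7.0, and at 6.27, 7.38 and 6.67 FPKM in labelled knockout libraries, against 13.7, 11.8 and 12.9 FPKM in Cas9-NTC libraries, a ratio of 1.89. Oas2, a sensor of double-stranded RNA, was at 0.0124 FPKM or less in every Gli2CA and NTC library, and at 0.331, 0.335 and 0.191 FPKM in labelled knockout libraries, against 3.95, 4.02 and 3.05 FPKM in Cas9-NTC libraries. With a pseudocount of 0.1, as with voom on recovered reads, 6 of the 34 were Cas9-only and 9 alike, and the interaction was lower for 6; the median interaction was then -0.29 and -0.10. The lower level in the labelled knockout held in each of its libraries: the median member lay at -0.62, -0.60 and -0.85 log2 units from the Cas9-NTC mean, with the third library the lowest.

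The interferon-stimulated response element, searched on both strands as GAAA, any 2 bases and GAAA, was in 3.99% of all promoters and 3.59% of those of tested genes. It was in 16 of 29 measured interferon-stimulated genes with a promoter entry (55.2%) and in 7 of 11 Cas9-only members of that list (63.6%), against 21 of 235 among all Cas9-only genes lower in the labelled knockout (8.94%). The promoters of Gbp2 and Gbp7, which were Cas9-only on every scale, and of Ifit1, whose class changed with the scale, are shown because they hold the same element. They come from RefSeq, build GRCm38.p6, at chr3:142620413-142620712, chr3:142530086-142530385 and chr19:34640639-34640938 on the plus strand, with matches in capitals at -59 in Gbp2, -53 in Gbp7, and -104 and -85 in Ifit1; none overlapped a match of another motif searched.
Gbp2: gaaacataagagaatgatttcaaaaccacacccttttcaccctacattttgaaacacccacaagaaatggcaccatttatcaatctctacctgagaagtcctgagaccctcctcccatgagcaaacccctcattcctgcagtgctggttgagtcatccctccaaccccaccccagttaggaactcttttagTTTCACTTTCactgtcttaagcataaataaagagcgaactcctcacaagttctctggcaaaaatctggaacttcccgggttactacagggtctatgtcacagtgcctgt
Gbp7: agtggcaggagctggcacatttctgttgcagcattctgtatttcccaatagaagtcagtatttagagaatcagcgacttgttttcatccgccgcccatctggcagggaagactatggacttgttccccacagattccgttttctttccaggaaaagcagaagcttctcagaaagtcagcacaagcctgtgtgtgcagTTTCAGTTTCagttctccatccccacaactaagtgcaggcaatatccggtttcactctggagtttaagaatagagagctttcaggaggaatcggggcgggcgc
Ifit1: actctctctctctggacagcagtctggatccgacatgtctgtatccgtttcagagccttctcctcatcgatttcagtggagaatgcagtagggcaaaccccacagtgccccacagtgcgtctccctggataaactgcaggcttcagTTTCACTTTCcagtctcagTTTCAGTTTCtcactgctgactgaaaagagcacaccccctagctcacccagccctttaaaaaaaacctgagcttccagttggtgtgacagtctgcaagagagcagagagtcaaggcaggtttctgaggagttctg

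Mitosis and G2-M genes were lower with Gli2CA and mostly had no called Cas9 response. Of 35 measured, 13 fell with Gli2CA only, 2 were alike (Ccnb2 and Aurkb), 2 opposite (Kif2c and Prc1), and the interaction was lower for 16 and higher for none, with a median of -0.58. The count of lower interactions ran between 12 and 26 over the 9 alternative settings; 2 and 3 were higher without the third labelled knockout library and with array weights, and 0 under the others. Ccna2, which encodes cyclin A2, measured 23.4, 24.1 and 24.5 FPKM in Gli2CA against 38.4, 44.4 and 39.1 FPKM in NTC libraries. Ccna2 was at 43.4, 49.6 and 51.9 FPKM in labelled knockout libraries, against 50, 51 and 53.3 FPKM in Cas9-NTC libraries. The Gli2CA libraries lay below all NTC libraries while the Cas9 experiment overlapped, and the interaction was -0.82 (SE 0.13, adjusted p = 0.00175). Cdc20, an activator of the anaphase-promoting complex, measured 31.2, 35.9 and 32.2 FPKM in Gli2CA against 54.6, 50.3 and 59.3 FPKM in NTC libraries. Cdc20 was at 89.1, 89.3 and 88.3 FPKM in labelled knockout libraries, against 89.5, 84 and 88 FPKM in Cas9-NTC libraries (interaction -0.68, adjusted p = 0.00447). Nusap1, a spindle protein, measured 11.5, 10.7 and 11 FPKM in Gli2CA against 18.7, 22.3 and 19 FPKM in NTC libraries. Nusap1 was at 19.8, 20.5 and 17.6 FPKM in labelled knockout libraries, against 19.8, 20.4 and 18.2 FPKM in Cas9-NTC libraries. All 3 kept their class under every alternative. The median member lay at -0.56, -0.59 and -0.55 log2 units from the NTC mean in the Gli2CA libraries, and in the labelled knockout libraries it lay at -0.05, 0.04 and 0.03 from the Cas9-NTC mean. Plk1, a mitotic kinase, showed the third labelled knockout library apart, at 31, 38.7 and 72.3 FPKM in labelled knockout libraries, against 68.3, 73.4 and 71.7 FPKM in Cas9-NTC libraries (interaction -1.17, adjusted p = 0.0495). DNA replication and G1-S genes had 3 Gli2CA-only members of 36 (Mcm6, Cdc45 and Rrm2, all lower), and the interaction was lower for 5, with a median of -0.23.

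**Figure D4:**
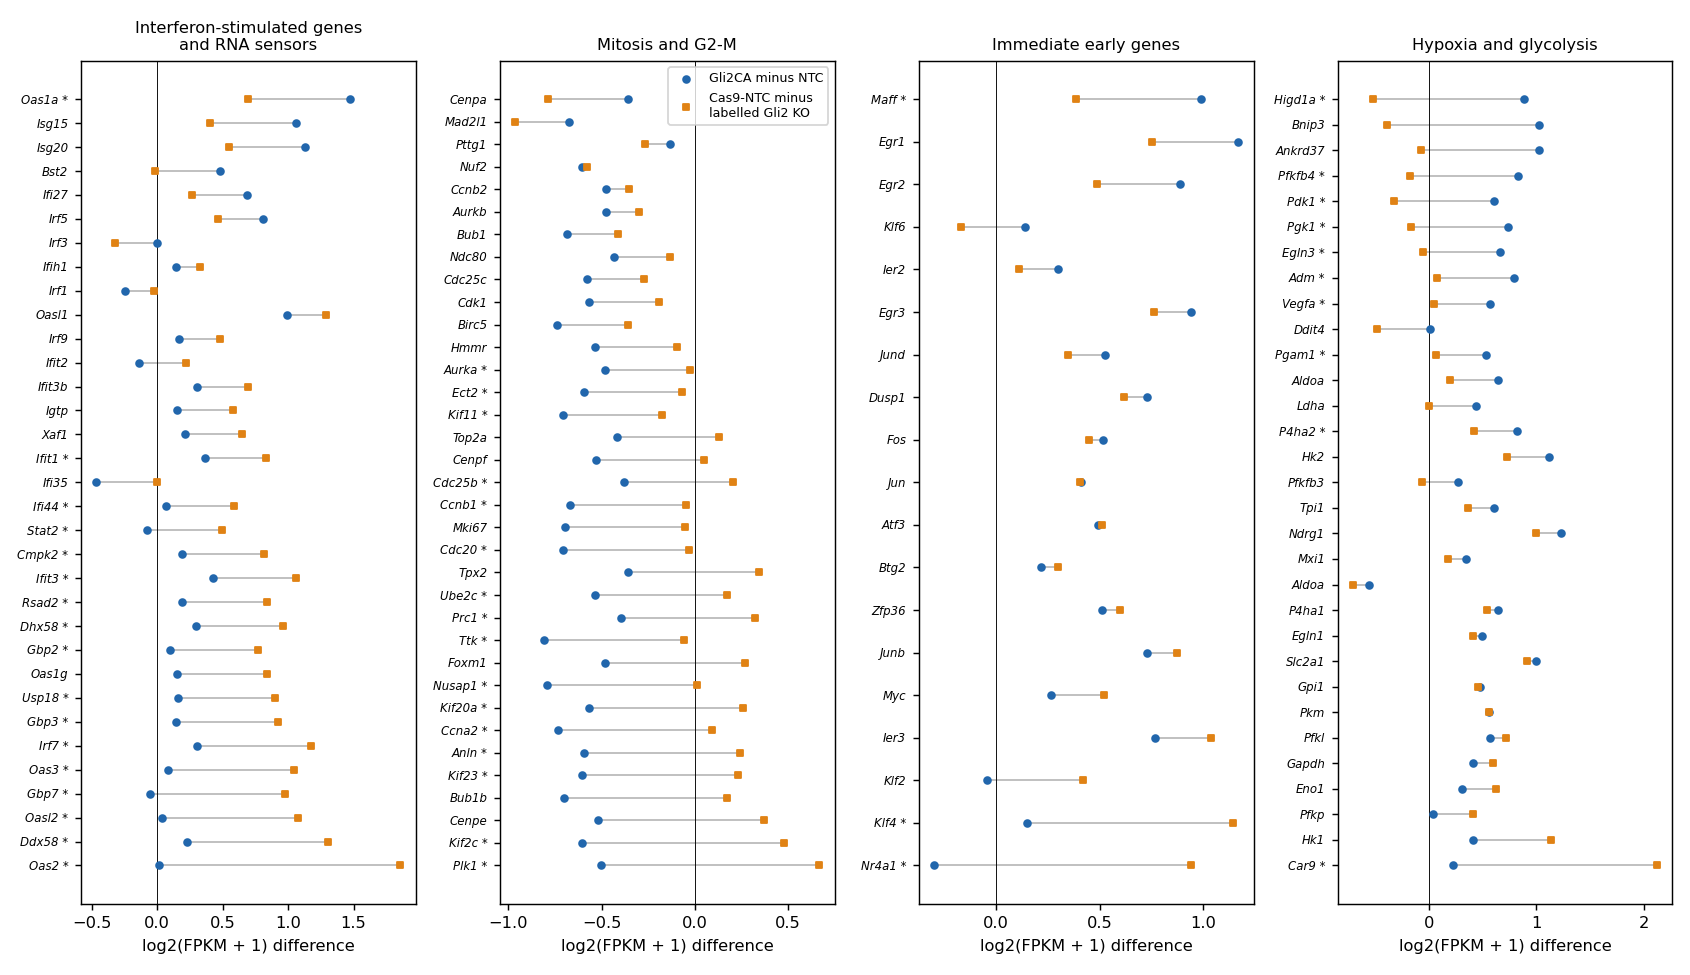
Gli2CA response (blue circles) and Cas9 response (orange squares) of measured members of 4 lists, as log2(FPKM + 1) differences, ordered by the interaction; an asterisk marks a called interaction, and Aldoa stands for 2 gene identifiers. Mitosis genes have blue circles left of 0 and squares on both sides of it, and Gbp2, Gbp3 and Gbp7 have circles near 0 and squares to the right.

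Some adhesion genes were called in the Cas9 experiment only. Of 26 integrins, cadherins and adhesion molecules, 6 were called lower in the labelled knockout only (Itgb7, Itga1, Itga7, Itgb3, Vcam1 and Itga4) and Cdh5 was called higher there only, while 1 was alike, 2 unequal and 1 Gli2CA-only. Cdh5, Itgb7 and Vcam1 were under 1 FPKM in every Gli2CA and NTC library. For Vcam1 the ratios of means were 1.8 in the Gli2CA experiment and 1.69 in the Cas9 experiment. With voom its interaction was -0.11 (adjusted p = 0.892), so its class depended on the scale. The median member lay at -0.81, -0.59 and -0.05 log2 units from the Cas9-NTC mean in the labelled knockout libraries, so the third library did not share the lower level. Itgb7, an integrin subunit of lymphocyte homing receptors, measured 0.403 FPKM or less in Gli2CA and 0.361 or less in NTC libraries. Itgb7 was at 6.06, 7.03 and 11.4 FPKM in labelled knockout libraries, against 41.8, 43.2 and 43.8 FPKM in Cas9-NTC libraries (interaction -2.21, SE 0.26, adjusted p = 0.000312). Itgb3, a subunit of vitronectin receptors, was at 43.4, 39.5 and 39.5 FPKM in Gli2CA against 38, 33 and 37.4 FPKM in NTC libraries, and at 0.566, 0.728 and 0.916 FPKM in labelled knockout libraries, against 2.14, 2.59 and 2.67 FPKM in Cas9-NTC libraries. Its interaction was -0.83 (SE 0.14, adjusted p = 0.0038), although the level was far higher in the experiment that showed no response. Slc9a2, a sodium-proton exchanger, was at 0.419 FPKM or less in 9 libraries and at 4.88, 4.79 and 4.79 FPKM in Cas9-NTC libraries (interaction -2.47, SE 0.12, adjusted p = 8.69e-07). Genes higher in the labelled knockout only included Cox7b2, a subunit isoform of cytochrome c oxidase, at 17, 11.7 and 5.42 FPKM in labelled knockout libraries, against 0.218, 0.145 and 0.142 FPKM in Cas9-NTC libraries and at 0 in all Gli2CA and NTC libraries (interaction 3.28, SE 0.39, adjusted p = 0.000307). Tspan6, a tetraspanin, measured 14.7, 17.6 and 16.1 FPKM in Gli2CA against 15.4, 21.4 and 16.4 FPKM in NTC libraries. Tspan6 was at 19.4, 13.4 and 7.75 FPKM in labelled knockout libraries, against 1.23, 1.74 and 1.2 FPKM in Cas9-NTC libraries. Cas9-NTC was thus the group that stood apart for Tspan6 and Slc9a2. Of other genes, collagens and matrix genes, MAPK output genes and YAP-TEAD targets were lower in the first and second labelled knockout libraries but not in the third: the median member lay at -1.06, -0.93 and 0.07 for matrix genes, -0.75, -0.66 and -0.03 for MAPK output genes and -0.57, -0.50 and 0.03 for YAP-TEAD targets.

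**Figure D5:**
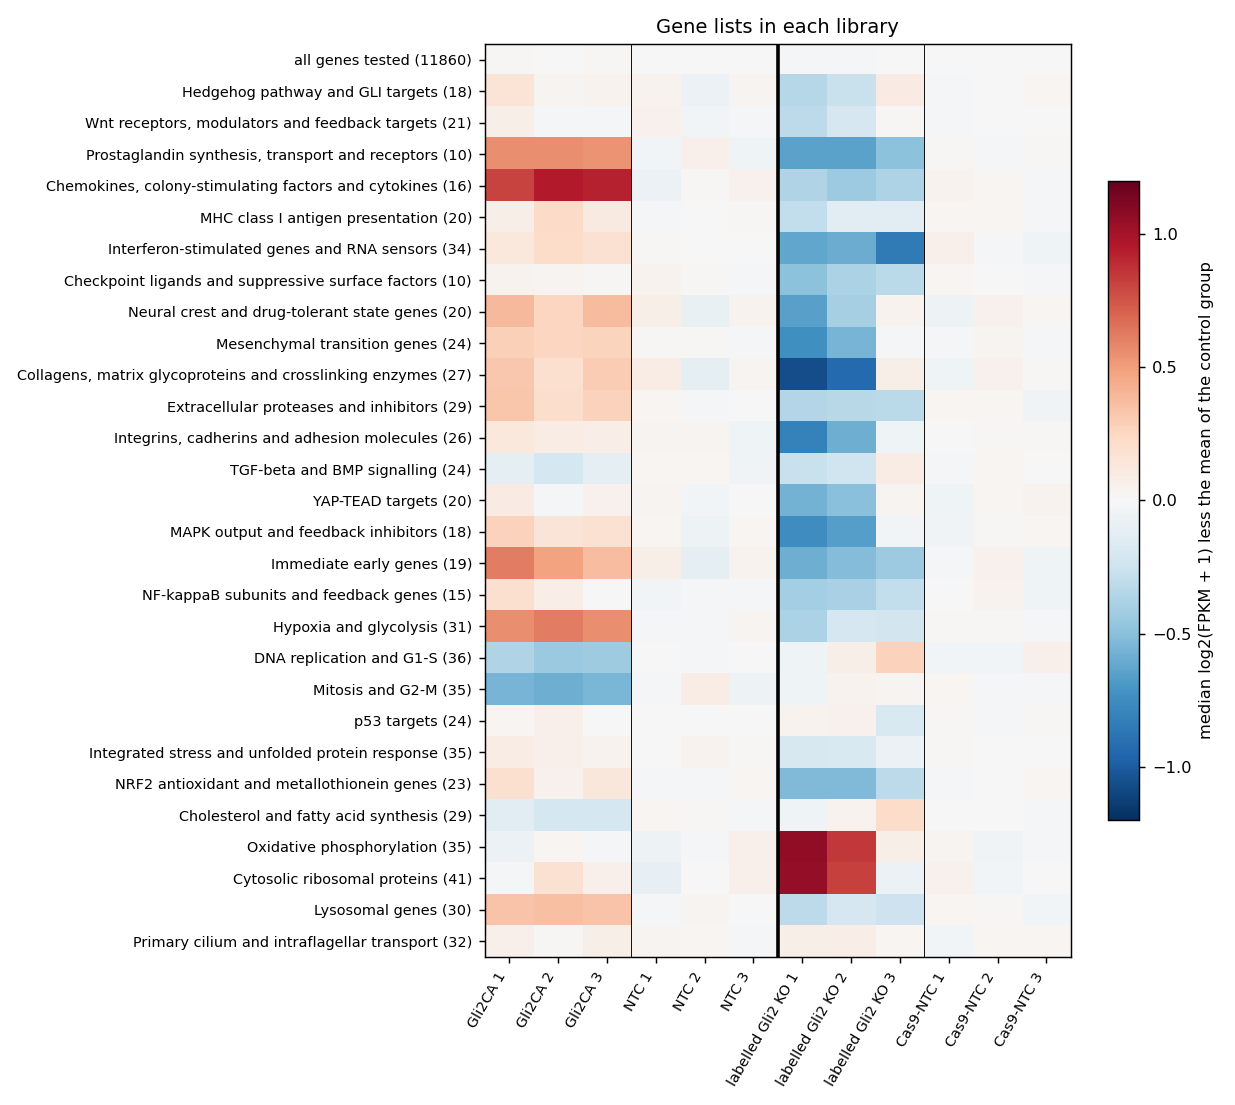
Median over the measured members of each list (number in brackets) of log2(FPKM + 1) less the mean of the control group of the same experiment, in each of the 12 libraries; the thick line parts the Gli2CA experiment from the Cas9 experiment. The third labelled knockout library is near 0 where the first and second are furthest from it, at 1.06 and 0.85 for oxidative phosphorylation and 1.05 and 0.82 for ribosomal proteins.

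Opposite responses, in which both edited groups moved the same way, were called for 96 genes. Tmem119, a membrane protein known from microglia and osteoblasts, measured 22.7, 20.8 and 18.1 FPKM in Gli2CA against 4.54, 4.25 and 4.81 FPKM in NTC libraries. Tmem119 was at 121, 138 and 157 FPKM in labelled knockout libraries, against 70.1, 74.4 and 70.5 FPKM in Cas9-NTC libraries. It was higher in both edited groups without overlap (interaction 2.89, SE 0.16, adjusted p = 1.84e-06). Msx3, a homeobox gene, and Cacng7, a calcium channel subunit gene, were also higher in both, with interactions of 2.5 and 1.54. Gpr149, an orphan receptor, measured 9.55, 9.55 and 9.97 FPKM in Gli2CA against 18.4, 22.5 and 17.4 FPKM in NTC libraries. Gpr149 was at 7.74, 8.29 and 9.73 FPKM in labelled knockout libraries, against 16.6, 17 and 16.4 FPKM in Cas9-NTC libraries. The controls of both experiments had like levels of Gpr149 and both edited groups were lower (interaction -1.81, SE 0.15, adjusted p = 3.2e-05). Gpnmb, a glycoprotein of melanosomes and lysosomes, was also lower in both, at 5.16, 5 and 5.55 FPKM in Gli2CA against 10.8, 11.3 and 10 FPKM in NTC libraries. Gpnmb was at 58.4, 69.9 and 96.1 FPKM in labelled knockout libraries, against 110, 110 and 109 FPKM in Cas9-NTC libraries.

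Several of the strongest Gli2CA-only responses were of genes with little or no RNA in the Cas9 experiment, though not S100a8 or Adamts8. Fxyd2, a regulatory subunit of the sodium pump, measured 8.89, 10.6 and 9.53 FPKM in Gli2CA libraries and 0 in all NTC libraries, and 0.00985 FPKM or less in the Cas9 experiment (interaction 3.41, SE 0.11, adjusted p = 2.51e-08). Grhl3, a grainyhead-like transcription factor of epithelia, measured 7.21, 6.68 and 7.48 FPKM in Gli2CA against 0.0942, 0.148 and 0.156 FPKM in NTC libraries and 0 in the Cas9 experiment. Shisa2, an inhibitor of Wnt and FGF receptors, was lower, at 3.21, 2.9 and 3.31 FPKM in Gli2CA against 15.6, 14.5 and 14.8 FPKM in NTC libraries, and 0 in the Cas9 experiment (interaction -1.95, SE 0.10, adjusted p = 1.31e-06). H2-K1, a classical MHC class I heavy chain, is a Gli2CA-only gene with ample RNA in both: 21.1, 22.1 and 22.9 FPKM in Gli2CA against 6.8, 6.21 and 6.3 FPKM in NTC libraries. H2-K1 was at 63, 64 and 77.9 FPKM in labelled knockout libraries, against 77.6, 83.4 and 80.8 FPKM in Cas9-NTC libraries. Its interaction was 1.39 (SE 0.13, adjusted p = 6.4e-05), with the third labelled knockout library inside the Cas9-NTC range. MHC class I genes have near-identical copies among which reads may be split, so their levels are uncertain. Of 20 measured MHC class I genes, 2 were Gli2CA-only and 2 alike (H2-T23 and B2m).

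No call of the interaction was made for oxidative phosphorylation (35 measured) or for the primary cilium and intraflagellar transport (32 measured) with limma, where 12 and 3 genes had an unadjusted p under 0.05. With voom 0 were called higher and 0 lower for oxidative phosphorylation, and 0 and 1 for the cilium. Without the third labelled knockout library, 29 were higher and 1 lower for oxidative phosphorylation and 9 were higher and 5 lower for the cilium, while 6671 of all 11860 genes were called, so the cilium count does not stand out. The median interaction of oxidative phosphorylation genes was 0.62 (0.96 without that library) and that of 41 ribosomal protein genes 0.71, of which 4 were called higher (40 without that library). On chromosome X, 83 of 371 tested genes had a called interaction (22.4%, against 10.5% overall), 60 of them in the Cas9-only class; the Cas9 response was called for 45.8% of X-linked genes and the Gli2CA response for 12.7%. The share was 28.0% with libraries rescaled to a common sum and 24.0% with quantile normalisation. Without the third labelled knockout library it was 60.6%, close to the 60.5% of chromosome 10, with 6671 of all 11860 genes called, so that X then hardly stood apart. With it, chromosomes 3 and 15 followed X, at 13.9% and 13.7%.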

How the data were processed

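RNA of 12 libraries, 3 in each of 4 groups, was measured by RNA sequencing. The authors deposited 1 table of FPKM values per gene, with 54532 Ensembl gene identifiers; the aligner, counting tool and build, and any use of strand, were not given in the sources used here. Therefore 36 of 126 named genes, whose exons overlap another gene's in the annotation, are uncertain to that extent, as are members of families with close copies (MHC class I, Oas, Ifit, Gbp). Gene names, positions and exon lengths came from the GENCODE M21 annotation (GRCm38), which held 54495 of the identifiers. FPKM times exon length gave whole reads (within 0.02 of a read) for 97.8 to 98.4% of low values in every library, from which depth was recovered.

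Genes that reached 1 FPKM in 3 or more of the 12 libraries entered a fit by limma 3.58.1 (R 4.3.3) of log2(FPKM + 1) values: 4 group means, 8 residual degrees of freedom, moderated with a trend, 2-sided, Benjamini-Hochberg over all genes tested, threshold 0.05. No sample was dropped or imputed. Classes came from the calls of both responses and the interaction. Tables and figures used Python 3.11.15, pandas 2.3.3, numpy 2.4.6 and matplotlib 3.10.9. The fits were tested on simulated data with independent noise in each library. No simulated library stood apart from its group, so that case was not tested. The 9 alternatives for classes were pseudocounts of 0.1 and 5, rescaling to a common FPKM sum, quantile normalisation, array weights, omission of the third labelled knockout library, a replicate block, a fit of each experiment alone, and voom on recovered reads, which was added after seeing the data, as were the medians per library and the promoters shown.

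Genes were named by rule: Gli2, Gli1 and Ptch1; in the alike, opposite and 2 one-experiment classes, in each direction, the 5 protein-coding genes with the largest size among those without overlap between libraries; and in each list up to 2 called and 2 alike members. The size was the smaller response (alike, opposite) or the interaction. Further list members were named after their values were seen: those a count lists by name, and Dusp1, Fos, Mmp3, Pfkfb4, Egln3, Pgk1, Gbp2, Gbp3, Gbp7, Stat2, Usp18, Ifit1, Ccna2, Cdc20, Nusap1, Itgb3 and the marker Sox10. The members and lists were chosen with earlier results of these data known. Replicate numbers do not pair the libraries. Values of some list members are not reported here.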

Additional observations from a re-analysis of the deposited data

Results flagged for a closer look

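The Gli2CA response and the Cas9 response of one gene were tested against each other for 11860 genes, and the difference was called for 1246 of them. The values below are that difference in log2(FPKM + 1) for the 78 called genes among those named by rule; positive values mean a larger Gli2CA response. They differ between experiments whose cells, media and kind of Gli2 change also differ, and the part of each was not tested. Genes that moved the same way in both edited groups and whose difference lay above 0 were Tmem119 (2.89), Msx3 (2.5), Mmp9 (2.31), Hopx (2.12), Cacng7 (1.54), Nt5e (1.10) and Gla (0.90). Genes that moved the same way in both edited groups and whose difference lay below 0 were Fzd1 (-0.76), Nfkbie (-0.86), Cd80 (-1.03), Kif2c (-1.09), Gpnmb (-1.48), Serpinb1a (-1.53), Uchl1 (-1.65), Ltbp2 (-1.68), Gpr149 (-1.81) and P3h2 (-1.93). Genes with responses of one sign and unequal size and whose difference lay above 0 were Slco2a1 (3.04), Grem1 (2.57), Serpinb2 (1.99), Mt1 (1.94), Ptgs2 (1.25), Plk2 (0.50) and Ctsb (0.48). Genes with responses of one sign and unequal size and whose difference lay below 0 were Stard4 (-0.45) and Pdpn (-2.03). In the groups that follow, a response in 1 experiment only means that the other response was not called, not that it was absent. Genes that responded in the Gli2CA experiment only and whose difference lay above 0 were Fxyd2 (3.41), S100a8 (3.21), Crabp1 (3.0), Grhl3 (2.84), Adamts8 (2.78), Ccl8 (2.53), Wnt7a (1.86), Spp1 (1.57), Higd1a (1.41), Wnt2 (1.40), H2-K1 (1.39), Gas1 (1.24), Col4a5 (1.15), Loxl2 (0.80) and Ddit3 (0.75). For Crabp1 the uncalled side was large: its labelled knockout mean was 34.7 times the Cas9-NTC mean, and its Gli2CA mean 5.34 times the NTC mean. Genes that responded in the Gli2CA experiment only and whose difference lay below 0 were Hsd17b7 (-0.42), Pmaip1 (-0.74), Mcm6 (-0.87), Lef1 (-1.14), Rab38 (-1.29), Enpp1 (-1.49), Sntb1 (-1.55), Cmtm5 (-1.79), Adam12 (-1.84) and Shisa2 (-1.95). Sntb1 also had a large uncalled side, of the same sign. Its labelled knockout mean was 7.4 times the Cas9-NTC mean, and its NTC mean 4.91 times the Gli2CA mean. Genes that responded in the Cas9 experiment only and whose difference lay above 0 were Cox7b2 (3.28), Prelid2 (2.57), Tspan6 (2.41), Xlr (2.11), Ppp1r1a (2.10), Gadd45a (1.38), Rpl38 (1.09) and Atf4 (0.79). The uncalled side of Ppp1r1a was large as a ratio: its Gli2CA mean was 8.38 times the NTC mean, and its labelled knockout mean 4.64 times the Cas9-NTC mean. Genes that responded in the Cas9 experiment only and whose difference lay below 0 were Bcl3 (-0.98), Lif (-0.98), Klf4 (-0.99), Tfap2b (-1.06), Ddx58 (-1.07), Nr4a1 (-1.24), Col6a2 (-1.28), Gstm1 (-1.29), Oas2 (-1.85), Car9 (-1.89), Krt76 (-1.92), Itgb7 (-2.21), Slc9a2 (-2.47) and Stmn2 (-2.57). Genes whose difference was called while neither response was and whose difference lay above 0 were H2-M3 (1.12) and Rps28 (0.99). Genes whose difference was called while neither response was and whose difference lay below 0 were Mcm4 (-0.97), Etv5 (-1.0) and Plk1 (-1.17).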

How the results depend on the processing

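Several choices moved the counts by over 1.5 times. Array weights gave 7963 called interactions (3869 higher, 4094 lower, 1013 by at least 2-fold), 4445 Gli2CA and 9158 Cas9 responses, and 1040 alike (493 lower), 1246 unequal, 1138 opposite, 845 Gli2CA-only and 4613 Cas9-only genes. Fits of each experiment alone gave 2916 Gli2CA and 762 Cas9 responses, and 243 alike (195 higher, 48 lower), 62 opposite and 251 Cas9-only genes. Scale mattered to direction and size: rescaling to a common sum gave 330 higher interactions, 685 of at least 2-fold and 236 alike higher genes, voom gave 367, 635 and 237 alike lower genes, and pseudocounts of 0.1 and 5 gave 635 and 101 of at least 2-fold. Quantile normalisation, no filter on low values and a filter of 1 FPKM in at least 6 libraries kept every count within 1.5 times.

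Leaving out 1 library gave 744 to 6671 interactions (351 to 3189 higher, 378 to 3482 lower, 320 to 1142 by at least 2-fold), 1132 to 3608 Gli2CA and 1338 to 7793 Cas9 responses. Alike genes then numbered 345 to 915 (266 to 520 higher, 75 to 395 lower), unequal 44 to 855, opposite 49 to 671, Gli2CA-only 298 to 764 and Cas9-only 275 to 4196; each highest value came without the third labelled knockout library. Replicate numbers share only a number: of 18 correlations of deviations between same-numbered libraries (-0.37 to 0.25), 4 exceeded 0.1, and 3 of 12 libraries lay closest to their own number. With the replicate block 976 interactions, 463 alike and 64 unequal genes were called.

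Of 2761 values of 126 named genes under alternatives, 2427 kept direction and side of the threshold, 278 lost the call, 52 gained it and 4 reversed: Sntb1 (1.59, adjusted p = 0.307, voom), Serpinb2 (-0.22, adjusted p = 0.815, voom), Il11 (0.59, adjusted p = 0.0131, pseudocount of 5) and Tfap2a (-0.29, adjusted p = 0.0108, array weights), all by limma; the cause was not tested. Of 78 called named genes 46 kept the call in every setting. With 3 libraries a group, 1 of them apart from its group, uncalled differences between the responses are not shown to be absent, and genes near 1 FPKM or below depend on the pseudocount.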
